A study of Mus musculus with 12 samples.

Results

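The change in gene expression of Fgfr1/Fgfr2 double mutant dermal papilla (DP) cells between postnatal days P14 and P16 was followed in 6 of the 12 libraries of the series, 3 from each day. The libraries were taken by genotype and day label alone. The double mutant, dMF1/2, carries Cor-cre and 2 floxed alleles of each receptor gene. Cor-cre is expressed in the DP from after birth, so that the epithelium and the other cells of the skin keep both receptors. The libraries that the labels call wild type control, 3 at P14 and 3 at P16, stood beside them. The study describes 1 floxed copy of each receptor with Cor-cre, or floxed alleles without Cre, as control genotypes. Since cells of both genotypes were collected by a Cre-dependent YFP reporter, sorted control cells are Cre-positive too. All libraries are labelled as anagen, the growth phase of the hair cycle, and as sorted DP cells, which came from dissociated whole skin through consecutive rounds of FACS. Each group has n = 3 libraries, and all values below come from total RNA depleted of ribosomal RNA.

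The DP is a small cluster of mesenchymal cells at the base of the hair follicle that signals to the overlying matrix, the proliferating cells that form the hair shaft. Fibroblast growth factor (FGF) ligands act through receptor tyrosine kinases, among them the products of Fgfr1 and Fgfr2, and much of the signal passes through the MAP kinase ERK. R-spondins, secreted by DP cells, strengthen Wnt signaling by keeping Frizzled receptors at the cell surface, whereas secreted antagonists such as DKK2 and NOTUM weaken it. Over the days sampled the follicles move toward the end of the growth phase.

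No change of the targeted genes was detected between the days. Fgfr1 (ENSMUSG00000031565, chromosome 8 of GRCm38, 25513654 to 25575714) had 7510, 6451 and 6460 rescaled reads in the P14 dMF1/2 libraries and 7837, 6121 and 7410 at P16, and the groups overlapped. A rescaled read is a recovered whole read divided by the library's scaling factor over all 12 libraries. The log2 fold change, here and below P16 over P14 on the log2 of rescaled reads plus 1, was 0.06 ± 0.15 (SE, limma's adjusted p = 0.861). Fgfr2 (ENSMUSG00000030849, chromosome 7, 130162451 to 133123350) had 5264, 3704 and 4635 rescaled reads at P14 and 5430, 4044 and 5470 at P16, a log2 fold change of 0.14 ± 0.14 (SE, limma's adjusted p = 0.622). The counts cover whole genes, including exons outside the floxed part, so that they do not check the deletion.

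The dMF1/2 libraries held 21161124 to 27122936 reads in the genes of the tables, a depth at which counting error is small for most genes named below. Corin, which defines the sorted lineage, lay at 840 to 2179 CPM (reads scaled to one common library total) at P14 and 646 to 1221 at P16. Some markers of other cells were near 0: Dct of melanocytes reached 0.609 CPM, Ptprc of leukocytes 0.0896 and Krt14 of keratinocytes 3.69 in any dMF1/2 library. Others were not. Rgs5, a pericyte marker, lay at 229.2 to 290 CPM at P14 and 193.1 to 323.3 at P16. Acta2, a dermal sheath marker, lay at 281.2 to 492 and 205.5 to 352.6, and Cdh5 of endothelium at 9.50 to 11.0 and 6.10 to 8.89. The share of other cells in the sorted material was not tested. Col1a1, the most abundant transcript, took 9.15% of reads in P14 dMF1/2 replicate 1 and 13.1% to 17.1% in the other dMF1/2 libraries. The P14 control library with the same number was also low in Col1a1, at 7.06%. Ddx3y and Eif2s3y, on the Y chromosome, had 2 and 0 reads in P14 dMF1/2 replicate 2. The other 5 dMF1/2 libraries had 1346 to 1967 and 370 to 736. So 1 P14 library nearly lacked reads of these Y-linked genes and no P16 dMF1/2 library did. The 4 Y-linked genes tested had a median log2 fold change (P16 over P14) of 2.77, and none was called. Since each day was also deposited as its own table, the day and any difference in preparation or sequencing between the days cannot be told apart.

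Among the genes called between P14 and P16 in the mutant DP, falls outnumbered rises and were larger at the median, while the median over all genes tested was 0.01. Of 13415 genes tested, 778 (5.8%) passed limma's test at an adjusted p under 0.05. Rises made up 246 of these (1.83% of genes tested) and falls 532 (3.97%). The sizes of rises and falls are given on the log2 scale throughout. The median log2 fold change was 0.45 over the genes that rose and -0.61 over those that fell. A log2 change beyond 1 was found for 20 of the rises and 100 of the falls, and 7 rises and 17 falls went beyond 2. In all 778 the 3 libraries of P14 did not overlap with the 3 of P16, as was so for 27.6% of all genes tested, 13.2% higher at P16 and 14.4% lower. In the first principal component of the 500 most variable genes, which held 41.0% of the variance, the dMF1/2 libraries of P14 lay between -18.0 and -12.4 and those of P16 between 9.36 and 20.8.

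The number of calls depended on single libraries, the rises more than the falls. In fits that left out each of the 12 libraries in turn, 231 calls held every time, which were 214 of the 532 falls (40.2%) and 17 of the 246 rises (6.91%). Removing P16 dMF1/2 replicate 1 left 257 calls, removing P14 dMF1/2 replicate 3 left 291, and removing P14 dMF1/2 replicate 2 left 341. The count was 350 when P16 dMF1/2 replicate 3 was removed. With the 6 dMF1/2 libraries fitted alone, 323 passed, 61 higher and 262 lower. When libraries were scaled to total reads, which Col1a1 influences, 104 passed, 4 higher and 100 lower. A call that held in all 12 of these fits is named as held below.

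The control DP moved the same way over these days. Of the 778 genes called in dMF1/2, 772 had the same sign in control, with a median log2 fold change there of 0.42 for the genes that rose and -0.56 for those that fell. The comparisons share no library, but they share the days and any batch that goes with them. At P14 libraries of the same number also resembled each other across the genotypes. In dMF1/2 and control, replicate 1 held 9.15% and 7.06% Col1a1 and identity marker sums of 16800 and 17500 CPM. Replicate 2 had 2 reads of Ddx3y in each. The bearing of this likeness on the shared signs was not tested. The 6 genes with the opposite sign in control were Vmn2r55, Limch1, Rp9, Zfp748, Cdc6 and Gm42878. They were looked up after their values were seen. In control 1951 genes passed (14.5%), 840 higher (6.26%) and 1111 lower (8.28%). The difference between the changes in the genotypes, the interaction of genotype and day, passed for 0 genes with limma (648 at an unadjusted p under 0.05) and for 0 with edgeR, but for 7 with DESeq2, Mmp11, Tagln3, Adrb3, Cdc42ep3, Rspo2, Rps18-ps3 and Unc5c. A call in one genotype and none in the other is therefore no sign of a difference in the limma fit.

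**Figure D1:**
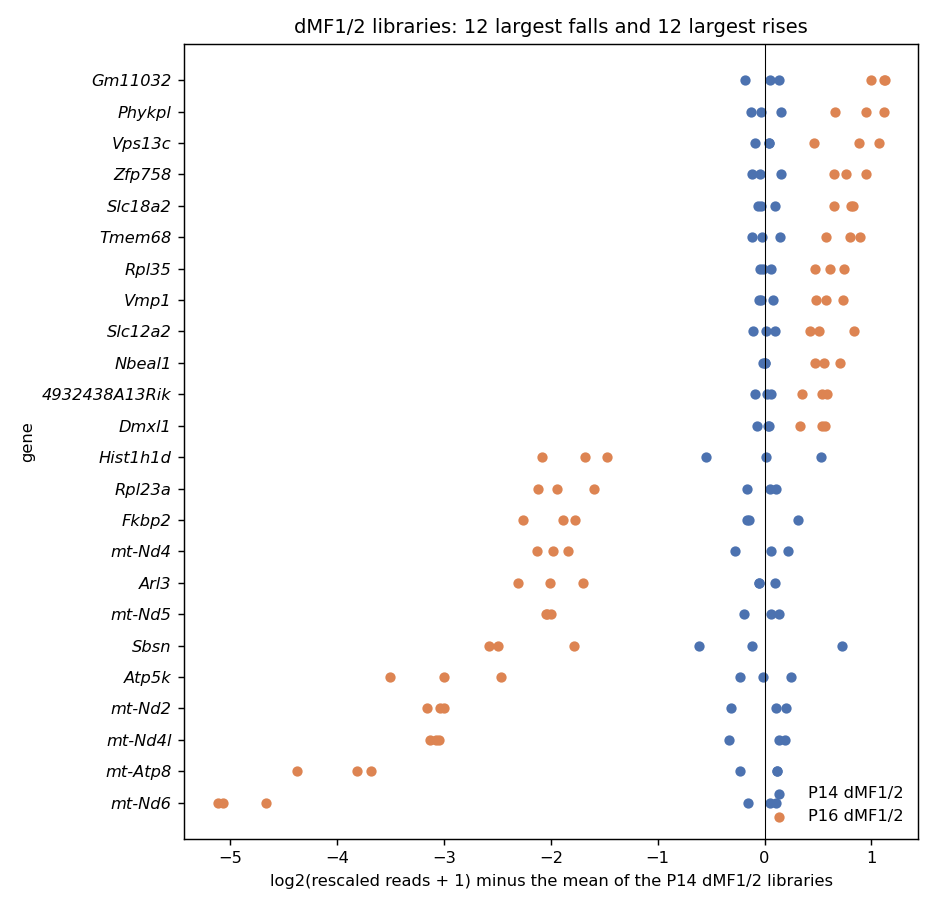
The 12 largest rises and 12 largest falls among held calls with a mean of at least 50 rescaled reads, by library, on a log2 scale relative to the mean of the P14 dMF1/2 libraries (blue, P14; orange, P16; 3 libraries each). The falls reach -4.95 on average for mt-Nd6, while the largest mean rise shown is 1.08 for Gm11032. Only genes whose days did not overlap were eligible, so the gap between the days follows from the choice.

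The largest falls were in transcripts of the mitochondrial genome, which encodes core subunits of the respiratory chain. Of its 13 protein-coding genes, 11 were lower at P16 and none higher, 10 of the calls held, and the median log2 fold change was -1.37, against 0.01 over all genes tested. mt-Nd6 (position 13552 to 14070 of the mitochondrial genome, minus strand), a subunit of complex I, had 2681, 2238 and 2579 rescaled reads at P14 and 97.2, 73.4 and 70.6 at P16. This was a 30.9-fold fall, the largest of the 13, with a log2 fold change of -4.95 ± 0.31 (SE, limma's adjusted p = 1.03e-05). mt-Nd6 is the only one of the 13 encoded on the minus strand. mt-Atp8, a subunit of ATP synthase, had 1809, 1422 and 1803 rescaled reads at P14 and 79.2, 117.4 and 128.8 at P16, a 15.6-fold fall (limma's adjusted p = 0.000144).

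Among the other complex I subunits, all called, the log2 fold changes were -3.08 for mt-Nd4l, -3.06 for mt-Nd2, -2.03 for mt-Nd5, -1.98 for mt-Nd4, -1.37 for mt-Nd1 and -0.95 for mt-Nd3. mt-Nd2 went from 12272, 8591 and 11453 rescaled reads to 1194, 1296 and 1330, and the P16 libraries lay closer together than the P14 libraries. mt-Atp6, of ATP synthase, fell by 1.37, and mt-Cytb, of complex III, fell by 1.29. The subunits of cytochrome c oxidase (complex IV) moved least. mt-Co2 fell by 0.72, a call that did not hold, and its adjusted p was 0.0680 with the 6 dMF1/2 libraries alone. mt-Co1 had 65722, 45549 and 58580 rescaled reads at P14 and 48864, 50189 and 58336 at P16 (log2 fold change -0.10 ± 0.18, SE, limma's adjusted p = 0.805). mt-Co3 likewise overlapped between the days (-0.09 ± 0.16, SE, limma's adjusted p = 0.782). The changes therefore ran from none detected to 30.9-fold within 1 genome, also between neighbours such as mt-Atp6 and mt-Co3, which meet at position 8607.

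In control 11 of the 13 were lower too, with a median of -1.25, and no mitochondrial gene had an unadjusted interaction p under 0.05. The mitochondrial genome gave 1.59%, 0.928% and 1.17% of the reads of the P14 dMF1/2 libraries and 0.638%, 0.634% and 0.824% at P16. Genes that overlap, such as mt-Atp8 and mt-Atp6 (7766 to 7969 and 7927 to 8607) or mt-Nd5 and mt-Nd6 (11742 to 13565 and 13552 to 14070, on opposite strands), may lose or share reads at their ends, and the strand setting of the counting is not given in the sources used here. After correction for transcript length and GC content 10 mitochondrial genes were called, and 10 after scaling to total reads. A difference between the days in RNA preparation that bears on these transcripts was not tested.

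**Figure D2:**
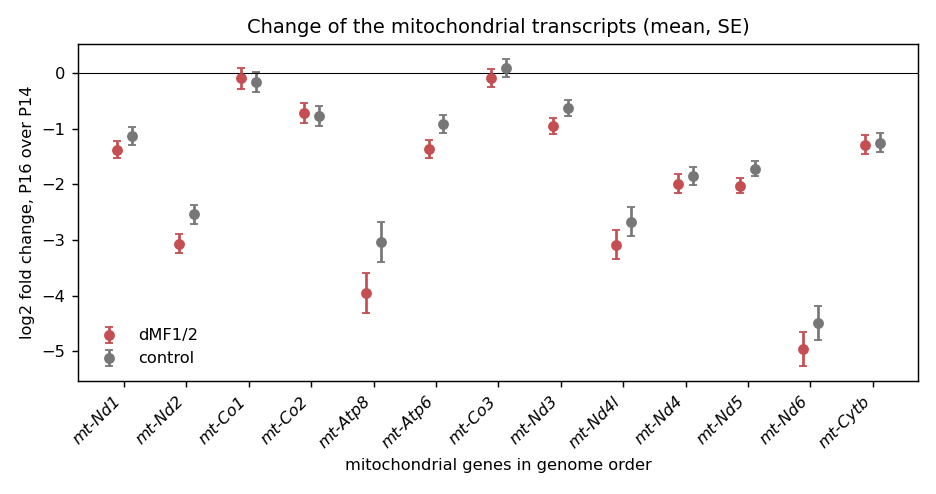
Log2 fold change (P16 over P14, mean and SE) of the 13 mitochondrial genes in genome order, in dMF1/2 (red) and control (grey) DP cells, n = 3 libraries a group. mt-Nd6 and mt-Atp8 lie lowest, at -4.95 and -3.96 in dMF1/2, mt-Co1 and mt-Co3 lie near 0, and the genotypes follow each other.

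Nuclear genes of the same complexes fell too. Of 88 nuclear subunits of the respiratory chain and ATP synthase, 28 were lower, beside 3.97% of all genes tested, and none higher, and 16 of the calls held. This family and those that follow in the next paragraphs were gathered by gene symbol after their members were seen among the falls, so that their counts describe them and are no independent evidence. Atp5k, a small subunit of ATP synthase, had 251.5, 348.9 and 290.5 rescaled reads at P14 and 35.9, 52.3 and 24.9 at P16, a log2 fold change of -2.99 ± 0.22 (SE, limma's adjusted p = 3.87e-05). Ndufa13, of complex I, went from 750.2, 887.4 and 800.8 to 250.3, 268.8 and 229.5 (-1.70 ± 0.09, SE, limma's adjusted p = 7.19e-06). Atp5j2 and Ndufa5 had log2 fold changes of -1.61 and -1.36. These members had narrow spreads within a day, and the days were far apart. Over the 88, however, the median was only -0.27, and most of the subunits were not called. After correction for transcript length and GC content 12 were lower and 1 higher, with a median of -0.07. With the 6 dMF1/2 libraries alone 15 were lower, and with scaling to total reads 12.

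Among 82 cytosolic ribosomal protein genes, 21 fell and 3 rose, beside 3.97% lower and 1.83% higher over all genes tested. Rpl23a went from 373.4, 360.8 and 310.6 rescaled reads to 79.2, 113.8 and 89.3 (-1.89 ± 0.21, SE, limma's adjusted p = 0.000476). Rpl11, with 2879, 2756 and 2767 reads at P14 and 1124, 1242 and 1182 at P16, fell by 1.24. The falls of Rpl29 and Rps21 had log2 fold changes of -1.30 and -1.20. Rpl35 ran the other way, from 924.1, 987.5 and 938.7 to 1316, 1589 and 1449 (0.61 ± 0.09, SE, limma's adjusted p = 0.00295), and held. Genes of this family have processed copies elsewhere in the genome, and reads that match several copies make single values uncertain. The median of the family was -0.13, and its share of reads was 1.45% to 1.90% at P14 and 1.44% to 1.57% at P16. With the correction for length and GC content 11 were lower and 16 higher, with a median of 0.07, so that the direction of the family depends on that choice. With the 6 dMF1/2 libraries alone 13 were lower and 1 higher, and with scaling to total reads 7 were lower and none higher. Of 76 mitochondrial ribosomal proteins 13 fell and none rose. They include Mrps15 (-1.14), Mrpl54 (-1.13), Mrpl52 (-0.94) and Mrpl20 (-0.93), given as log2 fold changes. After the correction 4 of the family were lower, with the 6 libraries alone 5 and with total reads 4.

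Genes of RNA processing made up a further group of falls. Of 41 genes for snRNP, Lsm and SF3 proteins of the spliceosome, 13 fell and none rose, and 9 held, beside 3.97% lower over all genes tested. Snrpg went from 172.2, 175.5 and 185.1 rescaled reads to 56.0, 80.7 and 81.0 (-1.30 ± 0.15, SE, limma's adjusted p = 0.000657). The log2 fold change was -1.25 for Lsm5, -1.21 for Snrnp35 and -0.96 for Sf3a2, all held. After the correction for length and GC content 12 genes of the family were lower, 11 of them among these 13, and 1 was higher. With the 6 dMF1/2 libraries alone 8 were lower, and with scaling to total reads 2. Of 20 heterogeneous nuclear ribonucleoproteins, which bind nascent RNA, 6 fell. In this group 8 were lower after the correction, 4 with the 6 libraries alone and 0 with total reads. Hnrnph3 fell by 1.04, and the abundant Hnrnpab went from 2265, 2395 and 2107 rescaled reads to 1299, 1255 and 1368, a log2 fold change of -0.79. Of the 5 prefoldin subunits tested, which hand unfolded actin and tubulin to the chaperonin, 4 fell, against 3 with the 6 libraries alone and 2 with total reads. Pfdn6 had 269.4, 300.5 and 260.2 rescaled reads at P14 and 99.3, 112.8 and 101.8 at P16 (-1.39 ± 0.12, SE, limma's adjusted p = 8.77e-05).

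Histone genes were lower at P16 in 13 of 52 cases, beside 3.97% of all genes tested, and higher in none, with a median of -0.64 in dMF1/2 and -0.36 in control. After the correction for length and GC content 5 were lower and 2 higher, with a median of -0.32, with scaling to total reads 3 were lower and with the 6 dMF1/2 libraries alone 8. The linker histone gene Hist1h1e had 1078, 1178 and 1014 rescaled reads at P14 and 404.5, 426.6 and 414.4 at P16 (-1.39 ± 0.14, SE, limma's adjusted p = 0.00032). Its log2 fold change in control was -0.82, and the interaction had an unadjusted p of 0.015 that did not pass (limma's adjusted p = 1). Hist1h1d and Hist2h3b fell too, with log2 fold changes of -1.75 and -2.01. Transcripts of replication-dependent histones lack a poly(A) tail, and ribosomal depletion, unlike poly(A) selection, retains them. Of 37 proliferation genes tested, 26 had a log2 fold change below 0 and the median was -0.26, but limma called none lower and 2 higher (5.41% called, beside 5.8% of all genes), with 5 at an unadjusted p under 0.05. The 2 were Pcna, a sliding clamp of DNA polymerase (421.1, 417.8 and 360 to 501.7, 578 and 665.7; 0.53 ± 0.14, SE, limma's adjusted p = 0.0426), and Cdc6, which was near the lower limit of measurement at 0.853 to 7.85 rescaled reads at P14 and 11.0 to 16.6 at P16. Neither call held.

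Other large falls lay outside these families. Arl3, a small GTPase of the cilium, had 347, 312.3 and 311.8 rescaled reads at P14 and 64.4, 79.8 and 98.7 at P16 (-2.01 ± 0.20, SE, limma's adjusted p = 0.000295). Fkbp2, a prolyl isomerase of the endoplasmic reticulum, fell by 1.98. Sbsn, better known from keratinocytes of stratified epithelium, went from 130.4, 234.8 and 92.0 to 24.3, 40.4 and 22.8 (-2.28 ± 0.38, SE, limma's adjusted p = 0.006). The hair follicle keratinocyte markers summed to 35.0 to 79.4 CPM at P14 and 46.6 to 54.1 at P16, and the ranges overlapped. Among highly expressed nuclear genes, Cd248, a surface glycoprotein of mesenchymal cells, went from 10041, 12699 and 11415 rescaled reads to 7351, 8139 and 6427 (-0.64 ± 0.12, SE, limma's adjusted p = 0.00998). The correction for length and GC content left it at -0.44 (limma's adjusted p = 0.11). Hox genes, which keep the positional identity of skin fibroblasts, gave 3 falls among 26 tested, beside 3.97% of all genes. With the 6 dMF1/2 libraries alone or the correction for length and GC content 1 fell, and with scaling to total reads 0. The log2 fold changes were -0.98 for Hoxc9, which held, and -0.58 for Hoxa7 and -0.57 for Hoxb2, which did not.

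The rises were spread over genes of many functions, and those beyond 2 on the log2 scale did not hold. Gm10263, a predicted gene, had 3.41, 0 and 1.12 rescaled reads at P14 and 241.9, 267.9 and 192.1 at P16 (6.79, limma's adjusted p = 0.0279), but in the P14 control libraries 0.944, 371.9 and 380.5. Rps18-ps3, a ribosomal protein pseudogene, was at 0 in the P14 dMF1/2 libraries and at 33.8, 29.4 and 34.3 at P16, and at 0, 51.1 and 36.6 in P14 control, so both genes were all but absent in some P14 libraries and present in others. Slc12a1, a sodium-potassium-chloride cotransporter best known from kidney, went from 70.8, 48.5 and 92.0 to 1063, 130.3 and 481.9 (2.56, limma's adjusted p = 0.0342). The other 4 were Dnah11 (3.65), Clca3a2 (2.32), Gm42878 (2.06) and Cdc6 (2.0), each with a mean of under 10 rescaled reads at P14. These 7 were looked up after their values were seen. Among the held rises Ska3, of the kinetochore, came first at 1.71, with a mean of 34.7 rescaled reads. Gm11032, a predicted gene, went from 43.5, 40.9 and 34.8 rescaled reads to 87.7, 79.8 and 87.2 (1.08 ± 0.18, SE, limma's adjusted p = 0.00575). Phykpl, a lyase of phosphohydroxylysine, had 524.3, 596.6 and 489 reads at P14 and 1036, 843.2 and 1159 at P16, a log2 fold change of 0.91. The lipid transfer protein gene Vps13c rose by 0.81, the zinc finger gene Zfp758 by 0.79, the vesicular monoamine transporter Slc18a2 by 0.76 and Tmem68 by 0.76. Vmp1, needed for autophagosome formation, rose from 863.6, 795.8 and 787.3 to 1214, 1139 and 1352 (0.60 ± 0.10, SE, limma's adjusted p = 0.008), and the chloride cotransporter Slc12a2 by 0.59. Nbeal1, 4932438A13Rik, Dmxl1 and Trpm7, a channel with a kinase domain, rose by 0.58, 0.49, 0.48 and 0.46. These 4 calls held without each library, but after correction for length and GC content the values were 0.17, 0.20, 0.11 and 0.19 and none was called. Among the 330 zinc finger (Zfp) genes 10 rose (3.03%) and 5 fell (1.52%), beside 1.83% and 3.97% of all genes tested. After the correction for length and GC content 3 rose and 1 fell, and with the 6 dMF1/2 libraries alone 2 rose and 2 fell.

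Transcript length and GC content separated the rises from the falls. The longest protein-coding transcript of the genes that rose had a median of 4970 bases, against 1668 for those that fell and 3260 for all genes tested. Median GC content was 42.6%, 54.2% and 50.2%. Across 13336 genes with both values, Spearman's rho of the log2 fold change was 0.28 with length and -0.379 with GC content in dMF1/2, and 0.233 and -0.28 in control. Genes share libraries and are not independent replicates, so these are descriptions. In the shortest decile of transcripts 15.4% were lower and 0.524% higher, and in the longest decile 1.20% were lower and 5.17% higher. Removing the smooth trend on both properties left 398 calls, 94 higher and 304 lower, which included 302 of the 778, 37 of the rises and 265 of the falls. The correction was chosen after seeing the data. Library preparation or RNA quality of either day as a source of the trend was not tested, since the day and any preparation batch cannot be told apart.

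**Figure D3:**
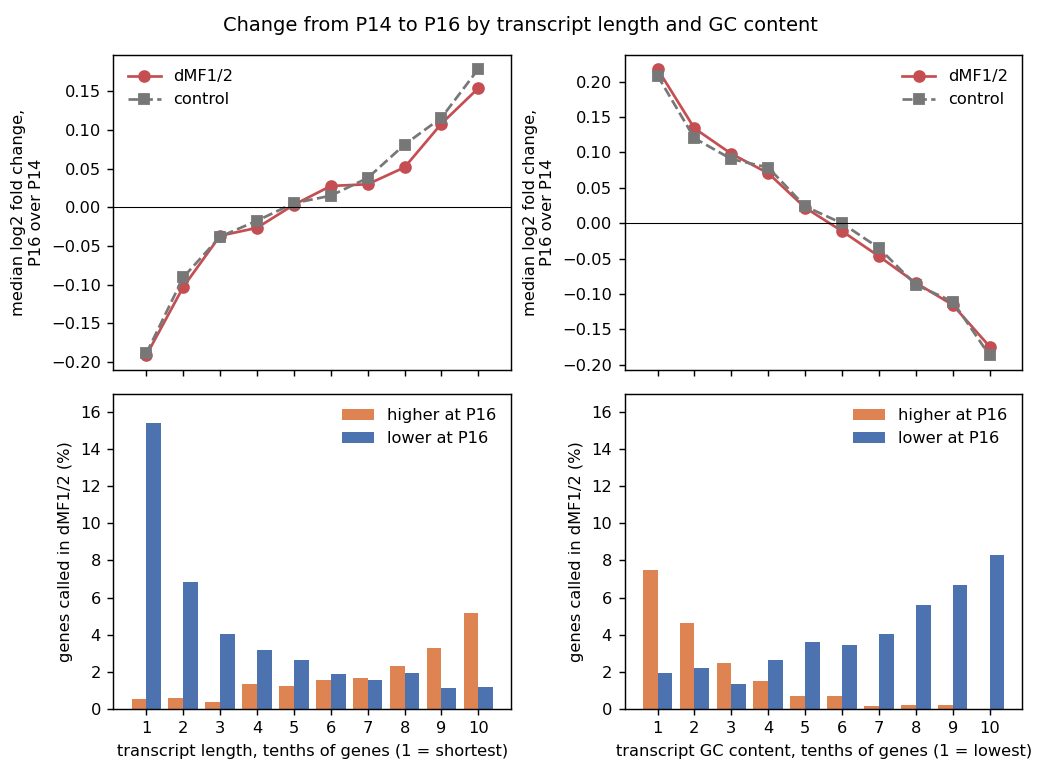
Median log2 fold change in deciles of genes by transcript length and GC content (upper plots; dMF1/2 in red, control in grey) and the percent of genes called higher (orange) or lower (blue) in dMF1/2 in each decile (lower plots). The median runs from -0.19 in the shortest to 0.15 in the longest decile and from 0.22 at the lowest to -0.17 at the highest GC content, with the control close by.

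Promoters of genes for translation, splicing and respiration often lack a TATA box and carry sites of ETS-family factors. Since many members of these groups fell together, promoter sequences are shown for a ribosomal and a splicing gene with a match that fell, for a member of the same family that fell without one, and for a gene that rose with and one without a match. They are the 250 bases before the annotated start, 5′ to 3′ on the gene's strand, from RefSeq on GRCm38.p6, and capitals mark the ETS motif CCGGAAG or its reverse complement.
Rps21 (chr2:180257129-180257378, plus strand): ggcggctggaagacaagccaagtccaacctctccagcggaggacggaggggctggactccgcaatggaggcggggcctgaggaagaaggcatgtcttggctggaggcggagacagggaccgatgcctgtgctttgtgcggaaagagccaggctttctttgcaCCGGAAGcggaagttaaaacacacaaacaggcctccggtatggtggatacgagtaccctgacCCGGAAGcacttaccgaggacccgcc
Rpl11 (chr4:136053394-136053643, minus strand): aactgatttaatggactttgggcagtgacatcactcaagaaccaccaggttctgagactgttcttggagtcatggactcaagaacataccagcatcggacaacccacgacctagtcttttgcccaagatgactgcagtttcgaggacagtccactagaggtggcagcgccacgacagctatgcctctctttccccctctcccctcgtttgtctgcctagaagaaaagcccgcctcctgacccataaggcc
Snrpg (chr6:86371290-86371539, plus strand): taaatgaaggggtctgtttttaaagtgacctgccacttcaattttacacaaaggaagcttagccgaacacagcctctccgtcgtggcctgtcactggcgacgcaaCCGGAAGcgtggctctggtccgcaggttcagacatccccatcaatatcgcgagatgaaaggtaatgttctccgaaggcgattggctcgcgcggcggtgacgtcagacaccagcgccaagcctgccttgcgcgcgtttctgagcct
Snrnp35 (chr5:124482905-124483154, plus strand): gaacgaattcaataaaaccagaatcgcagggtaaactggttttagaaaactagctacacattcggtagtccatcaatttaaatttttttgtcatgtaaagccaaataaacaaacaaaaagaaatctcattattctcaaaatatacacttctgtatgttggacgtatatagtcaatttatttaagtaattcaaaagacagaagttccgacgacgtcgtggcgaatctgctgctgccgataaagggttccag
Vmp1 (chr11:86683837-86684086, minus strand): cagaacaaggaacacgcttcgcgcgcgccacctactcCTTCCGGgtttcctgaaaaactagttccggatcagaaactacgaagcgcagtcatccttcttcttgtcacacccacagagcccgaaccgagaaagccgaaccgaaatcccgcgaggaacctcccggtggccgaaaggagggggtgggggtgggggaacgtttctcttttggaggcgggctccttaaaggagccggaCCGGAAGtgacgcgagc
Zfp758 (chr17:22361213-22361462, plus strand): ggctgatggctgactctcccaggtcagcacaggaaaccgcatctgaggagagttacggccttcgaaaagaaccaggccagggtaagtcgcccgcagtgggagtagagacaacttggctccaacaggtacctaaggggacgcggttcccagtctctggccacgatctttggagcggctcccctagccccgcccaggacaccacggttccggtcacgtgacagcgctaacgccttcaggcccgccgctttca
Rps21 and Vmp1 hold 2 matches each, Snrpg holds 1, and Rpl11, Snrnp35 and Zfp758 hold none. Over the named genes with a promoter, 8 of 51 that fell, 2 of 16 that rose and 0 of 40 not called hold a match in these 250 bases. Counted before the start only, the motif was found in 20.8% of 419 promoters of all genes that fell. It was found in 10.4% of 201 of genes that rose and 13.2% of 10536 of all genes tested. The named genes include 20 that fell from the respiratory, ribosomal, splicing, hnRNP and prefoldin families, of which 6 hold a match. In windows from 250 bases before to 50 after the start, on both strands, the motif was found in 27.4% of 419 promoters of genes that fell, 12.9% of 201 of genes that rose and 17.3% of 10536 of all genes tested. A promoter was matched for 78.5% of the genes tested, 78.8% of those that fell and 81.7% of those that rose. The shares need not stand for the whole set, so the comparison is void as a check and describes only the matched promoters. Genes that fell and rose also differed in median transcript GC content, 54.2% and 42.6%, and its bearing on the motif shares was not tested. Of the other motifs searched, SP/KLF (GGGCGG) was found in 62.3% of the promoters of genes that fell, 72.6% of those that rose and 64.7% of all, and NF-Y (CCAAT) in 43.0%, 37.3% and 38.5%. The letters of the Wnt effectors TCF/LEF were found in 1.19%, 2.99% and 2.57% as CTTTGAT and in 3.34%, 3.98% and 3.54% as CTTTGAA. AP-1 (TGANTCA) was found in 3.82%, 3.48% and 4.77%, the E-box (CACGTG) in 11.5%, 13.4% and 9.98%, and E2F (TTCCCGC) in 10.3%, 12.4% and 8.38%. The TATA motif (TATAAA) was found in 8.59%, 7.96% and 7.17% and the CArG box in 1.91%, 0.995% and 1.31%. A match is a run of letters and not a bound site.

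In the Wnt pathway, which the study follows in these cells, 3 of 84 genes tested over 5 lists were called in dMF1/2 (3.57%), a share close to the 5.8% of all genes. None of the 4 R-spondin genes passed. Rspo2 had 6265, 3458 and 3422 rescaled reads at P14 and 3002, 2664 and 4091 at P16 (-0.39 ± 0.38, SE, limma's adjusted p = 0.593). P14 replicate 1 lay highest, and the days overlapped. Rspo3 had 16119, 6329 and 8862 at P14 and 6341, 7341 and 9645 at P16 (-0.34 ± 0.41, SE, limma's adjusted p = 0.687), and its value was 0.03 with both P14 libraries numbered 1 left out. Rspo4 (26278, 14087 and 16574 to 12570, 12240 and 17609) and Rspo1 (4821, 2865 and 3594 to 2545, 2699 and 3429) had log2 fold changes of -0.39 and -0.36. In control the 4 changed by -2.81 for Rspo2, -2.74 for Rspo3, -1.95 for Rspo4 and -0.98 for Rspo1. The difference between the genotypes was 2.41 for Rspo2 (unadjusted p = 0.000815) and 2.41 for Rspo3 (unadjusted p = 0.0015), each with limma's adjusted p = 1, while DESeq2 called Rspo2.

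Over the 11 agonists and co-receptors tested, the R-spondins and receptors such as Lgr4 among them, none was called in dMF1/2 by limma, DESeq2 or edgeR, and 0 had an unadjusted p under 0.05. The median was 0.10, and in control 4 fell. Of 15 secreted antagonists tested none was called by limma or edgeR and 1 by DESeq2, with 6 at an unadjusted p under 0.05. Dkk2 had 4832, 3739 and 4930 rescaled reads at P14 and 8177, 4926 and 7032 at P16, a log2 fold change of 0.56 ± 0.21 (SE, limma's adjusted p = 0.139). Only P16 replicate 2 lay within the P14 range. Notum, a lipase that inactivates Wnt ligands, had 2341, 1070 and 1626 at P14 and 5032, 1640 and 3641 at P16 (0.96 ± 0.43, SE, limma's adjusted p = 0.214). Wif1 overlapped between the days, at 36174, 23386 and 30894 and then 24996, 28229 and 41344.

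Of 13 Wnt ligands, Wnt10b fell. It had 86.1, 120.6 and 51.6 rescaled reads at P14 and 20.1, 25.7 and 11.4 at P16, a log2 fold change of -2.11 ± 0.51 (SE, limma's adjusted p = 0.0357). Every P16 library lay below every P14 library (exact permutation test, two-sided, p = 0.1, the smallest that 3 against 3 allows). The call did not hold, with an adjusted p of 0.0271 to 0.122 when 1 library was left out. Its control change was -0.35, and the difference did not pass (unadjusted p = 0.033, limma's adjusted p = 1). Of 10 Frizzled receptors Fzd3 rose by 0.50, a call that did not hold. Of 35 intracellular components and feedback targets Tcf7l1, a transcription factor that mostly represses Wnt targets, fell from 1102, 1074 and 989 to 593.6, 664.2 and 595.1 (-0.77 ± 0.10, SE, limma's adjusted p = 0.00134), and this call held. Ctnnb1, the gene of beta-catenin, had 8870, 9175 and 9084 and then 12148, 10042 and 10538 rescaled reads (0.27 ± 0.12, SE, limma's adjusted p = 0.197).

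**Figure D4:**
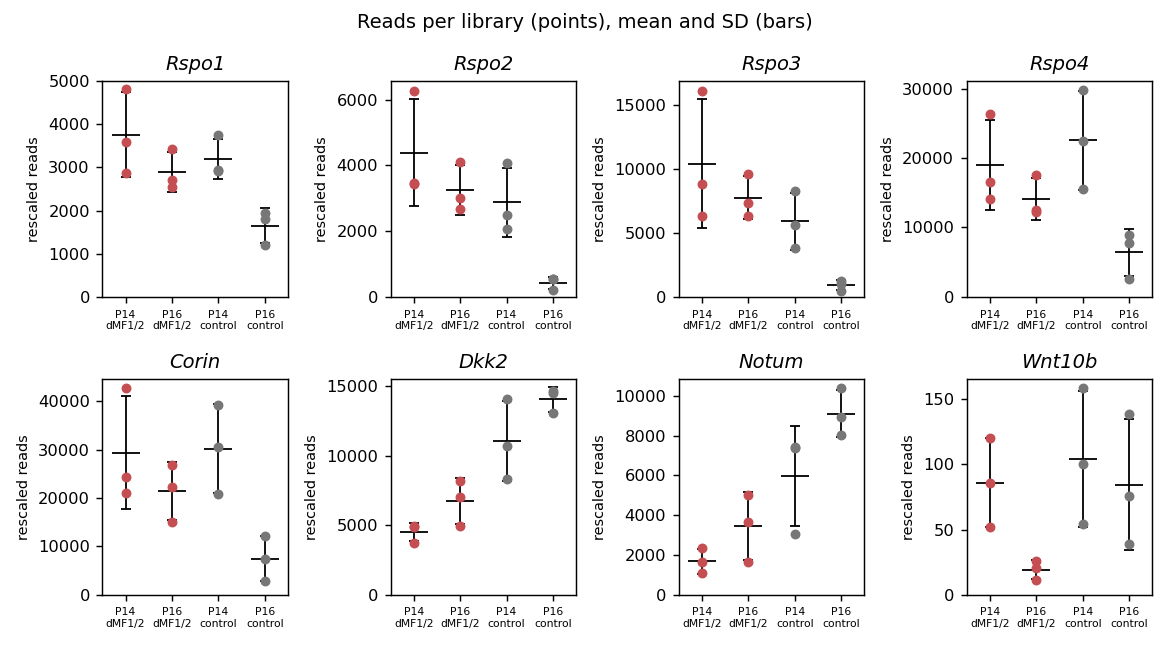
Rescaled reads by library (points) with mean and SD (bars) for the 4 R-spondin genes, Corin, Dkk2, Notum and Wnt10b, in dMF1/2 (red) and control (grey) at P14 and P16, n = 3 a group. The P16 dMF1/2 libraries overlap those of P14 for every gene shown but Wnt10b, and the P16 control libraries lie below those of P14 for the R-spondins and Corin.

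Of 47 FGF signaling genes tested over 3 lists 2 were called (4.26%), a share close to the 5.8% of all genes. None of the 14 receptors and co-receptors tested passed with limma, edgeR or DESeq2 (1 at an unadjusted p under 0.05), nor did any of the 13 ligands (0 at an unadjusted p under 0.05). Fgf10 had 6554, 3405 and 4130 rescaled reads at P14 and 3050, 3964 and 4626 at P16 (-0.24 ± 0.25, SE, limma's adjusted p = 0.621), and Fgf7 a log2 fold change of -0.20. Of 20 ERK feedback and target genes, Spred1, an inhibitor of the Ras pathway, rose by 0.32. Spsb1, an adaptor of ubiquitin ligases, fell from 1077, 1119 and 886 to 616.8, 548.6 and 633.5 (-0.77 ± 0.17, SE, limma's adjusted p = 0.0236). In control its log2 fold change was -0.07, and the difference did not pass (unadjusted p = 0.013, limma's adjusted p = 1). Neither call held.

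Other pathways gave 1 call or a pair, and 5.8% of all genes tested were called. Of 34 BMP ligands, receptors and antagonists, the receptor Bmpr2 rose by 0.36. Of 15 IGF genes Igfbp6, which binds IGF2, fell by 0.72, and of 41 other growth factors and receptors Tgfa rose by 0.90 and the GDNF co-receptor Gfra1 fell by 0.58. None of these 4 calls held. In the TGF-beta (23 tested), Notch (19) and Hedgehog (11) lists limma and edgeR called none, DESeq2 called 1, 1 and 0, and 5, 3 and 2 had an unadjusted p under 0.05. Ptch1, receptor and target of Hedgehog signaling, had 15680, 10484 and 11768 and then 9587, 10694 and 16494 rescaled reads (-0.06 ± 0.28, SE, limma's adjusted p = 0.924). Of 69 developmental transcription factors Six2 fell, from 82.7, 74.3 and 76.3 to 37.0, 24.8 and 29.1 (-1.35 ± 0.24, SE, limma's adjusted p = 0.008), and this call held, while Runx1 rose by 1.07, a call that did not hold. The glucocorticoid receptor gene Nr3c1, among 17 nuclear hormone signaling genes, rose from 4740, 4536 and 5115 to 7273, 6132 and 6777 (0.49 ± 0.10, SE, limma's adjusted p = 0.0218), also not held.

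Genes that mark the DP itself gave no call with limma or edgeR in the fits of all 12 libraries. Over the 28 identity genes DESeq2 called 5, 1 higher and 4 lower. Limma called 1 lower with the 6 dMF1/2 libraries alone and 1 lower with both P14 libraries numbered 1 left out. With all 12 libraries 6 had an unadjusted p under 0.05, and the median was -0.19. The direction of that median rests on the libraries numbered 1 at P14, since it was 0.03 with both left out. In control 14 fell and 1 rose, with a median of -0.99. For 13 of the 28 the unadjusted interaction p was under 0.05, and none passed adjustment. Corin had 42680, 21127 and 24262 rescaled reads at P14 and 14983, 22258 and 26844 at P16 (-0.43 ± 0.47, SE, limma's adjusted p = 0.648), against a change of -2.22 in control. Summed, the identity genes lay at 16800 CPM in P14 dMF1/2 replicate 1, at 7486 and 9132 in the other P14 libraries and between 8306 and 13450 at P16, and the ranges overlapped. In bulk RNA, fewer papilla cells and less RNA per cell cannot be told apart.

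Markers of the dermal sheath, the contractile layer around the follicle, were below 0 for all 17 genes tested, with a median of -0.55, but none passed with limma or edgeR, 1 did with DESeq2 and 4 had an unadjusted p under 0.05. With the 6 dMF1/2 libraries alone limma called 1 lower, and with both P14 libraries numbered 1 left out it called 2, with a median of -0.89. Acta2 had 5508, 12371 and 11521 rescaled reads at P14 and 4765, 8775 and 6564 at P16 (-0.51 ± 0.42, SE, limma's adjusted p = 0.518). P14 replicate 1 was well below the other P14 libraries, and the days overlapped. The sum of these markers was 2264 to 3288 CPM at P14 and 1609 to 2348 at P16. The immune markers summed to 25.7 to 29.3 CPM at P14 and 14.3 to 22.1 at P16. H2-Ab1, an MHC class II gene in that sum, fell from 289.8, 287.5 and 245.6 rescaled reads to 48.6, 106.4 and 116.3 (-1.68 ± 0.35, SE, limma's adjusted p = 0.0193), 1 of 7 immune markers tested and a call that did not hold. Without it the sum was 14.5, 14.3 and 17 CPM at P14 and 12.2, 17.8 and 12.9 at P16, and the days overlapped. The melanocyte markers ran the other way, with sums of 34.4 to 41.2 CPM at P14 and 46.5 to 57.5 at P16 in dMF1/2, and of 36.2 to 43.5 and 50.6 to 58.2 in control. The days did not overlap in either genotype, but limma and edgeR called none of the 5 melanocyte markers tested in dMF1/2, DESeq2 called 1 and 1 had an unadjusted p under 0.05 (median 0.51). Dct and Tyrp1 reached only 0.609 and 0.392 CPM in any dMF1/2 library, so nearly all of the melanocyte sum came from other genes of the list. Of the 9 listed genes present on both days, 4 had a mean under 10 rescaled reads. The part of sheath, immune and melanocyte cells in the other results was not tested. Single markers of other cells also fell, none of which held. Mylpf (-2.85) was the 1 call among 8 skeletal muscle markers (5 below 0, median -0.53), and the hair shaft gene Tchh (-1.05) the 1 call among 18 hair follicle keratinocyte markers (5 below 0, median 0.16). Ramp2 (-0.51), a receptor activity protein, was the 1 call among 14 endothelial markers, of which 5 were below 0, with a median of 0.22.

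Some matrix genes were lower at P16. Of 36 collagens Col6a6 fell from 1716, 1923 and 1651 rescaled reads to 980.1, 1116 and 926.4 (-0.81 ± 0.10, SE, limma's adjusted p = 0.000886) and held, and Col5a3 fell by 0.87 and did not. The median over the collagens was -0.29. With both P14 libraries numbered 1 left out 6 collagens were lower, with the 6 dMF1/2 libraries alone 3, and with scaling to total reads 0. Col1a1, with 9.15% of reads in P14 replicate 1, gave 0.15 ± 1.14 (SE), and its value was -0.27 without the P14 libraries numbered 1, so its direction rests on them. Of 55 matrix glycoproteins, proteoglycans and CCN proteins 4 fell and none rose, beside 3.97% lower over all genes. After the correction for length and GC content 1 fell, after that for GC content alone 0 and with total reads 1, while with the 6 libraries alone 2 fell and 1 rose. Emilin1, of elastic fibers, went from 5121, 4426 and 4873 to 2951, 3107 and 3378 (-0.61 ± 0.09, SE, limma's adjusted p = 0.00329) and held. The other 3, Mfap2 (-0.75), Ecm1 (-0.61) and Thbs3 (-0.47), did not hold. Of 63 axon guidance genes, Efnb1 fell by 0.56 and held. Mmp15, 1 of 55 matrix proteases and inhibitors, fell by 0.68, and Rara, the retinoic acid receptor alpha gene and 1 of 17 retinoid genes, fell by 0.47, and neither held.

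Among metabolic and stress lists, Mvd and Pmvk of the mevalonate pathway fell, 2 of 34 genes of cholesterol and fatty acid synthesis, a share of 5.88% called beside 5.8% over all genes. Mvd went from 121.9, 112 and 135.7 rescaled reads to 61.3, 65.1 and 63.4 (-0.95 ± 0.16, SE, limma's adjusted p = 0.00554) and held. Ppib (-0.60) and Dnajb11 (-0.44) fell, 2 of 35 genes of endoplasmic reticulum chaperones and the unfolded protein response, and neither held. Bax, which promotes cell death, fell by 0.40 and Birc3, which inhibits it, rose by 0.64, 2 of 27 genes of that list. Neither held, and Bax was at 0.00 after correction for length and GC content. No circadian clock gene of 20 was called by limma or edgeR (1 by DESeq2, 5 at an unadjusted p under 0.05), and their median was 0.28. Dissociation stress genes gave 0 calls of 21 with limma and edgeR and 4 with DESeq2, with 6 at an unadjusted p under 0.05 and a median of 0.32. In control 8 of these rose with a median of 0.61. Their sum in dMF1/2 was 15670 to 21950 CPM at P14 and 17760 to 21930 at P16. Whether the handling of the skin bears on other changes was not tested. Limma and edgeR also called no gene among those of the dermal fibroblast (18 tested), basement membrane and integrins (46), glycolysis and hypoxia (33), interferon response (29), chemokines and cytokines (32), senescence (16), neuropeptides (21) and zinc transport (20). In the same order 1, 5, 6, 5, 6, 5, 3 and 4 of these had an unadjusted p under 0.05, and DESeq2 called 0, 2, 2, 1, 3, 3, 1 and 1.

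**Figure D5:**
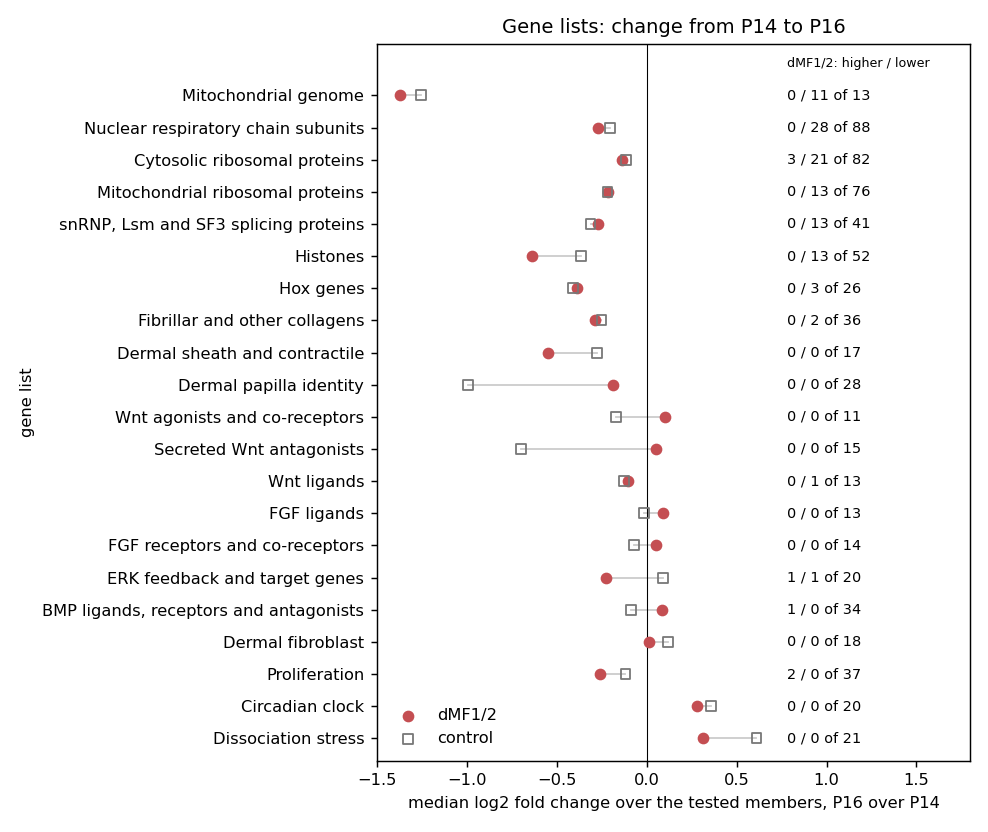
Median log2 fold change (P16 over P14) over the tested members of gene lists in dMF1/2 (filled) and control (open), with the number of members higher and lower in dMF1/2 at the right. The mitochondrial genome lies lowest at -1.37, and the medians of the genotypes stand apart for dermal papilla identity, -0.19 in dMF1/2 and -0.99 in control, and for secreted Wnt antagonists, 0.05 and -0.70.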

How the data were processed

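RNA of sorted DP cells from 3 dMF1/2 and 3 control samples at each of P14 and P16 was sequenced with 61-base single-end reads. After ribosomal depletion and stranded library preparation, the authors used Trimmomatic for trimming, Tophat 2 for mapping to mm10, HTSeq-count for gene totals (Ensembl, GRCm38.p4) and DESeq2 for normalization. The deposited tables, one per day, hold signal values, which are reads per protein-coding gene divided by size factors that the authors set within each day. They also hold the authors' own comparisons of the genotypes (fold changes, test statistics and p-values), which were not used. Every value was a whole multiple of one constant per library (100% within a tolerance of 0.01), so whole reads were recovered. On the 14986 genes shared by the tables, 1 set of median-of-ratios factors was computed for all 12 libraries. The log2 of rescaled reads plus 1 was tested with limma 3.58.1 (R 4.3.3, mean-variance trend) on the 13415 genes with a mean of at least 10, in one fit of 4 groups, with Benjamini-Hochberg adjustment and a threshold of 0.05. The design fixed edgeR's test only for deposited counts, and limma for normalized values. A gene was called when it passed this threshold. The study describes each library as the DP of 1 mouse, so p-values measure the spread between mice.

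The libraries were taken by their labels, while the comparison, gene lists and rules were chosen with earlier results of these data known. Named genes were those the study follows, the 12 largest rises and falls and the 5 most abundant calls each way. The rises, falls and abundant calls had a mean of at least 50, days that did not overlap and a call that held with each library left out. For each list up to 4 called members were added or, where none was called, up to 2 of highest mean. Families grouped by symbol were added after the values were seen. Some genes of the pathways are not reported here. Transcript length and GC content are those of the longest protein-coding transcript of GENCODE on GRCm38, and promoters are from RefSeq. The alternatives were edgeR 4.0.16 and DESeq2 1.42.0 on the recovered reads, the 6 dMF1/2 libraries alone, the replicate number as a block, pseudocounts of 0.1 and 10, other filters and scalings and leaving out each library. Corrections for length and GC content and the removal of both P14 libraries numbered 1 were chosen after seeing the data. The limma, edgeR, DESeq2 and length- and GC-corrected fits were tested on simulated reads. Same-numbered dMF1/2 libraries of P14 and P16 had correlated deviations from their group means of 0.0292, 0.208 and -0.162 across genes, so the numbers do not pair the days.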

Additional observations from a re-analysis of the deposited data

How the results depend on the processing

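The 778 calls became 323 (61 higher, 262 lower) with the 6 dMF1/2 libraries alone, 330 (65 and 265) with these scaled on their own, 1341 (549 higher) with DESeq2, 104 (4 and 100) with scaling to total reads, 408 (58 and 350) with correction for GC content and 398 (94 and 304) with correction for length and GC content. The replicate number as a block gave 944 calls in 12 libraries and 137 (18 and 119) in the 6 dMF1/2 libraries alone, although the numbers do not pair the days. The share of calls that were higher was 31.6% in the main analysis, 18.9% with the 6 libraries, 13.1% with the block in them, 3.85% with total reads and 14.2% with the GC correction. Leaving out 1 library gave 257 to 861 calls, 22 to 305 higher and 235 to 556 lower, and 0 to 2 genes in the interaction. The interaction called 7 genes with DESeq2 and 2 with both P14 libraries numbered 1 left out. The count of calls stayed within 1.5 times of 778 under edgeR, other pseudocounts and filters, TMM and upper-quartile scaling and the length correction. The cause of these shifts was not tested.

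Under the correction for length and GC content 4 of the 778 called genes turned sign, Rabgap1l (0.28 to -0.019), Rps10 (-0.37 to 0.032), Rpl38 (-0.50 to 0.068) and Rps28 (-0.52 to 0.0097). The sign also turned for genes that were not called. With the length correction the log2 fold changes were -0.0011 for Fgfr1, -0.056 for Notch2, -0.054 for Notch3 and -0.0053 for Hhip. With the GC correction they were -0.031 for Hhip, -0.12 for Rgs5, -0.013 for Pmp22 and 0.061 for Pkm. With both corrections they were -0.0016 for Notch2, -0.14 for Hhip, -0.12 for Rgs5, 0.060 for Pkm and 0.013 for Penk. Without both P14 libraries numbered 1 they were 0.032 for Rspo3, 0.16 for Apcdd1, 0.028 for Fgf10, 0.10 for Ptch1, -0.27 for Col1a1, -0.33 for Col1a2, -0.13 for Rgs5, -0.018 for Pmp22, -0.20 for Sparc and 0.069 for Ndrg1. edgeR gave -0.0030 for Col1a2, and Pmp22 was -0.0047 with TMM, -0.015 with upper-quartile and -0.0036 with total-read scaling. With 1 library left out the values ran from -0.012 to 0.17 for Fgfr1, -0.00185 to 0.28 for Fgfr2, -0.64 to 0.033 for Rspo3, -0.025 to 0.31 for Lgr4, -0.16 to 0.20 for Wif1, -0.12 to 0.16 for Apcdd1, -0.44 to 0.029 for Fgf10, -0.40 to 0.042 for Fgf7, -0.21 to 0.049 for Ltbp1, -0.011 to 0.23 for Notch3, -0.12 to 0.35 for Hhip, -0.30 to 0.10 for Ptch1, -0.26 to 0.36 for Col1a1, -0.33 to 0.33 for Col1a2, -0.18 to 0.29 for Rgs5, -0.053 to 0.057 for Pmp22, -0.012 to 0.52 for Btg1, -0.20 to 0.42 for Sparc and -0.27 to 0.070 for Ndrg1. Of the 93 called genes picked by the rule for named genes, 61 held without each library. Called genes mentioned outside that rule are not in this count.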

Other observations

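Genes whose days separated without overlap in both genotypes and in the same direction numbered 2240 of 13415 (16.7%). Those that separated in opposite directions numbered 17 (0.127%), and none of these 17 was among the genes named above. Genes present in only 1 of the tables, 223 at P14 and 348 at P16, had at most 95 and 76 summed reads and were not tested.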
